A study of Mus musculus with 12 samples.

Results

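The retina and pigment cell genes described here are Six6, Crx, Rcvrn, Rpe65, Tyr, Tyrp1, Dct, Pmel and Mitf, 9 of the 38986 genes counted in each teratoma library. They were chosen by symbol, as genes of retinal progenitors, photoreceptors, retinal pigment epithelium and melanocytes, and all 9 symbols were found. The study asked how Dnmt3L, a cofactor of the de novo DNA methyltransferases, and the loss of its acetylation sites affect what mouse embryonic stem (ES) cells can form in a teratoma, a tumour of mixed differentiated tissues. RNA was sequenced from 12 teratomas in 4 groups of 3, 1 library per teratoma.

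Every group came from R1 mouse ES cells carrying the pEZ-Lv235 lentiviral vector with its CAG promoter, which is active in most cell types, and each group was 1 selected cell line, so that line and construct cannot be told apart. ET carried the empty vector and served as the control, WT carried wild-type Dnmt3L, and K238R and K412R carried Dnmt3L with the named lysine replaced by arginine, a residue that cannot be acetylated. For each group 5000000 cells were placed under the skin of 8-week-old male NOD-PrkdcEM1 mice, which are immunodeficient, and teratomas were collected at day 21. NOD mice are albino, and RNA of host cells caught in a tumour was counted under the same gene symbols as that of the ES cell progeny. The labels do not say whether each teratoma came from its own mouse, so the tests below measure the spread between these 12 samples.

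Vision and pigmentation share a set of regulators. The eye field of the early forebrain gives rise to retina and to retinal pigment epithelium, whereas melanocytes of skin and hair come from the neural crest, and both pigmented lineages use Mitf to switch on the genes that build melanosomes and make melanin. Photoreceptors, which are formed from retinal progenitors that leave the cell cycle, depend on Crx for their sensory genes, and they rely on the pigment epithelium to recycle the visual chromophore.

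The libraries held between 16957677 and 18546100 counts, so that 3 counts, taken here as the limit of detection, corresponded to between 0.162 and 0.177 CPM, the counts scaled to a common library total. Dnmt3l, which checks the labels, had 2941, 3643 and 3581 counts in WT, 699, 677 and 463 in K412R, 39, 11 and 137 in ET, and 35, 20 and 10 in the K238R-labelled libraries, which therefore lay in the range of ET or below it and are called by their label throughout. WT exceeded ET by a log2 fold change of 5.78 (edgeR quasi-likelihood adjusted p = 0.0192), a call lost in 6 of 12 leave-one-out fits (each without 1 library). By a chi-square of counts, ET replicate 2 and WT replicate 1 lay furthest from the other libraries of their group. So did replicate 2 of the K238R-labelled libraries and K412R replicate 3. Without ET replicate 2 or WT replicate 1 the number of genes called between WT and ET rose from 9 to 5784 or 1309, and without both to 6977. Without replicate 2 of the K238R-labelled libraries or K412R replicate 3 it fell to 0 or 1. No member was called with or without these libraries.

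The sequences upstream of the pigment genes and of Crx are shown here for the sites of known regulators that they hold. RefSeq promoters (GRCm38.p6, a different build from the GRCm39 of the counts) were available for 7 of the 9 members, all but Rcvrn and Pmel, with 9 starts in all because Mitf has 3. The 250 bases before each start are printed 5′ to 3′ on the gene's strand. For Tyr, Tyrp1 and Dct, capitals mark the E-box CATGTG on either strand, the site bound by Mitf. It lay at bases -21 to -16 of Tyr and -46 to -41 of Tyrp1, and at -232 to -227 and -150 to -145 of Dct, counted from the start. The other Mitf E-box, CACGTG, did not occur in these 3 windows.
Tyr, chr7:87493513-87493762, minus strand: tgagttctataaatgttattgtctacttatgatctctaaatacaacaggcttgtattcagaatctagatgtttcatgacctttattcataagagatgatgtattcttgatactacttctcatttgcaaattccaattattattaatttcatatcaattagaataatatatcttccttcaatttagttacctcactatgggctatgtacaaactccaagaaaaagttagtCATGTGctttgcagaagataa
Tyrp1, chr4:80833963-80834212, plus strand: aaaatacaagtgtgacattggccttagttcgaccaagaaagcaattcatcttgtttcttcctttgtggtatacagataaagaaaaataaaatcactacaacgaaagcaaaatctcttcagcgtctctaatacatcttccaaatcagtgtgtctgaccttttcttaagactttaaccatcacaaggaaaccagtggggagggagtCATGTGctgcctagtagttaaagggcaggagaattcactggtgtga
Dct, chr14:118052247-118052496, minus strand: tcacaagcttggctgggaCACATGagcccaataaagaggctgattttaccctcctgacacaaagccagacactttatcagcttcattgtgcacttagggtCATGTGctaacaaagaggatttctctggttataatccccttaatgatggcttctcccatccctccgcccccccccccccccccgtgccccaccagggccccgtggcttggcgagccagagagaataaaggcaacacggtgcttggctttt
All 3 melanin enzymes held the E-box, which occurred in 12.3% of 32851 mouse promoter windows of the same length, and either E-box occurred in 17.6%. Among the other members, Rpe65 also held it, at -239 to -234. A match describes the letters only and shows no binding.

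Of the 3 Mitf starts, the most downstream is shown because it is the melanocyte-specific one, and its capitals mark TGACGTCA, the cyclic AMP response element, at bases -153 to -146. This palindrome occurred in 1.55% of the promoter windows and in neither of the other Mitf windows. For Crx, capitals mark TAATCC on either strand, the letters that Crx itself prefers, which lie here on the opposite strand at -94 to -89 and -21 to -16. TAATCC occurred in 6.25% of promoter windows, and it was also found in those of Rpe65, Dct and the middle Mitf start.
Mitf, start 3, chr6:97991533-97991782, plus strand: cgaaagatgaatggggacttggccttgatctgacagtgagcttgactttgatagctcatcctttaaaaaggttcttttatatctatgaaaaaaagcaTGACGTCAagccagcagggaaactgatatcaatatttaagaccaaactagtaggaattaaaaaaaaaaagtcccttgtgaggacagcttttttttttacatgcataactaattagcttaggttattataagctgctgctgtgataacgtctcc
Crx, chr7:15879956-15880205, minus strand: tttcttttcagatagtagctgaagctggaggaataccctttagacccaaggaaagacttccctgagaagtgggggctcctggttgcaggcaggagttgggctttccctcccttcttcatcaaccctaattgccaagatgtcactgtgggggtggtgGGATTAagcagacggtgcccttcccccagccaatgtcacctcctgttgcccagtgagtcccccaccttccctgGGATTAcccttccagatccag
The counts cover Mitf as 1 gene over all of its starts, so that the melanocyte transcript could not be separated from the others.

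Mitf, the basic helix-loop-helix factor named after microphthalmia, was the most abundant member. The members of melanin synthesis that it is known to drive had low counts, at most 2 in a library for Tyr, 9 for Tyrp1, 14 for Dct and 19 for Pmel. Per kilobase of exon, the mean level of Mitf over the 12 libraries was 1.31 CPM, against 0.600 for Six6, 0.278 for Pmel, 0.0872 for Tyrp1, 0.0669 for Dct, 0.0543 for Rcvrn, 0.00873 for Crx, 0.00733 for Rpe65 and 0.00454 for Tyr. Of the 108 member values, 29 were 0 and 52 lay below 3 counts. Crx, Rpe65 and Tyr never reached 3 counts in a library, and Rcvrn reached it in 1. Only Mitf, Six6 and Pmel passed the filter on low counts, 3 of 9. In whole tumours, fewer cells of a type and less RNA per cell cannot be told apart.

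**Figure D1:**
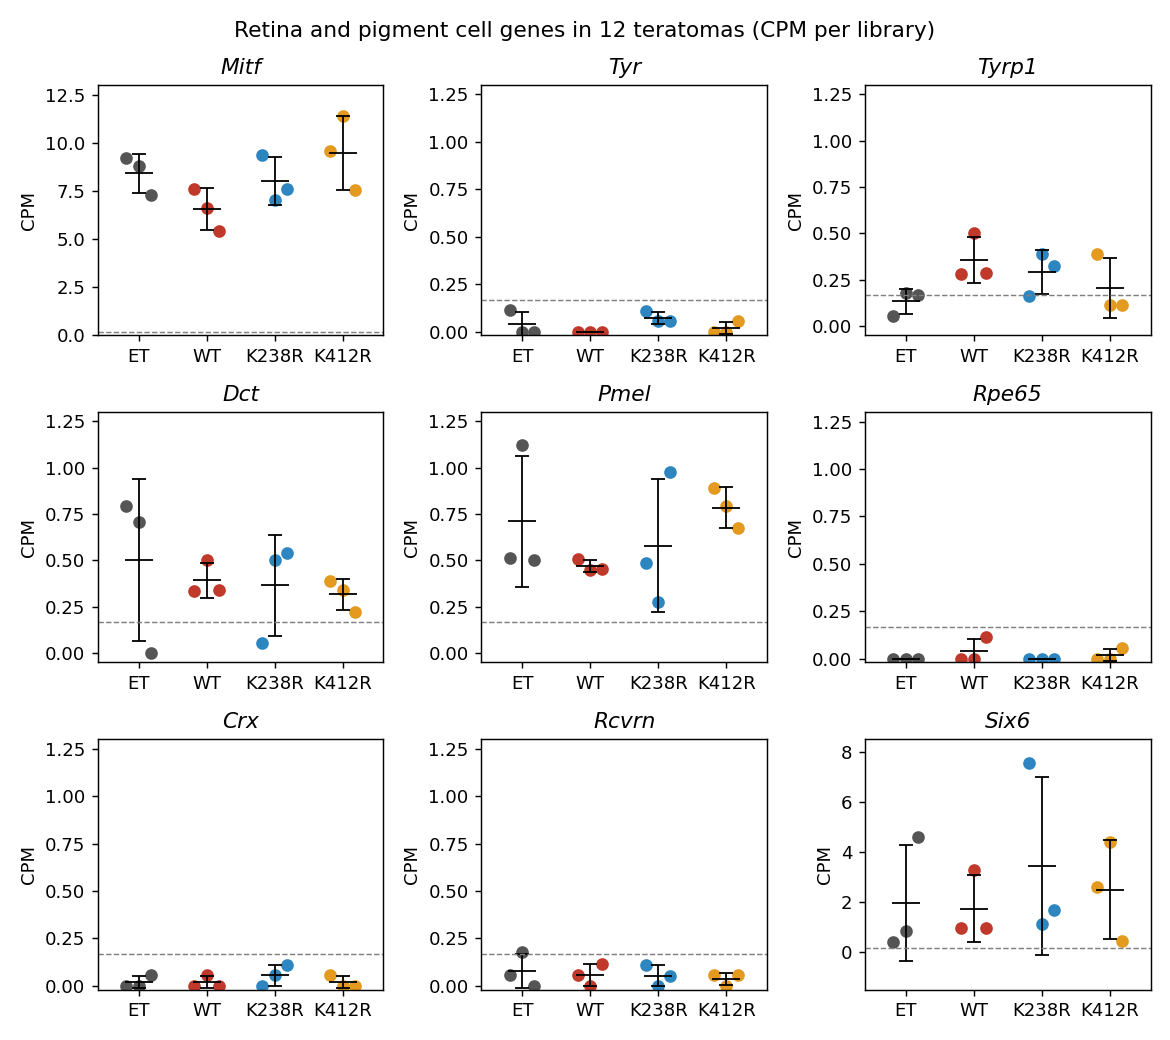
Level of each member in CPM (linear axes, which differ for Mitf and Six6 from the other 7 panels) in the 3 libraries of each group, ordered by replicate from left to right. Dots are libraries, the wide tick and bar are mean and SD, and the dashed line is the mean limit of 3 counts. Mitf lies far above that line in every library, Six6 varies within each group, and Crx, Rpe65 and Tyr lie below the line throughout.

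Mitf was read at 9.21, 8.79 and 7.28 CPM in ET, at 7.59, 6.63 and 5.42 in WT, at 9.38, 7.00 and 7.60 in the K238R-labelled libraries, and at 9.58, 11.4 and 7.52 in K412R. Group means were 9.49 ± 1.92 CPM (SD, n = 3) in K412R, 8.43 ± 1.01 in ET, 7.99 ± 1.24 in the K238R-labelled libraries and 6.55 ± 1.09 in WT. WT was the lowest group and K412R the highest, but the libraries of neighbouring groups overlapped in this order, and WT replicate 1 lay above K412R replicate 3. The largest contrast was K412R against WT, 1.44-fold higher in K412R (log2 fold change 0.53, 95% interval 0.09 to 0.96), with an unadjusted p of 0.0218 and an edgeR quasi-likelihood adjusted p of 0.152. DESeq2 gave an adjusted p of 0.104 for it. In that comparison 22.8% of all 18405 genes tested had an unadjusted p under 0.05, so a value of this size was common among them.

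The other contrasts of Mitf were smaller. WT against ET gave a log2 fold change of -0.34 (standard error 0.20, edgeR quasi-likelihood adjusted p = 0.263), and the K238R-labelled libraries against WT gave 0.25 (adjusted p = 0.511). Against ET the log2 fold change was -0.09 (95% interval -0.53 to 0.34) for the K238R-labelled libraries and 0.19 (95% interval -0.24 to 0.62) for K412R. Mitf also serves osteoclasts and mast cells. The summed level of 12 macrophage, osteoclast and mast cell genes was between 155 and 184 CPM in WT and between 149 and 167 in K412R, and that of 10 neural crest melanocyte genes, Mitf included, was between 282 and 331 in WT and between 291 and 305 in K412R; their part in the level of Mitf was not tested.

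The melanin enzymes were barely read in any group. Tyr, the rate-limiting enzyme of melanin synthesis, had 2, 0 and 0 counts in ET, 0 in each WT library, 2, 1 and 1 in the K238R-labelled libraries, and 0, 0 and 1 in K412R. Its total of 7 counts over 12 libraries corresponds to 0.0327 CPM, with a 95% Poisson interval of 0.0131 to 0.0673 that covers counting error only. No difference in Tyr between groups was detectable at this depth.

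Tyrp1, which stabilises tyrosinase and acts later in the eumelanin pathway, had 5, 9 and 5 counts in WT, against 1, 3 and 3 in ET, 7, 2 and 2 in K412R and 3, 7 and 6 in the K238R-labelled libraries. The WT libraries, at 0.356 ± 0.126 CPM (SD, n = 3), did not overlap those of ET, at 0.134 ± 0.067, a separation that 20.8% of tested genes showed in this comparison. With no filter on low counts, edgeR's quasi-likelihood test gave a log2 fold change of 1.40 (standard error 0.75, adjusted p = 0.331). Dct, which converts dopachrome, had 14, 12 and 0 counts in ET, against 6, 9 and 6 in WT, 7, 6 and 4 in K412R and 1, 9 and 10 in the K238R-labelled libraries. It ranged from 0 to 0.796 CPM, and ET held both the highest and the lowest library.

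Pmel, whose protein forms the fibrils on which melanin is laid down, had 16, 14 and 12 counts in K412R, against 9, 8 and 8 in WT, 9, 19 and 9 in ET and 9, 5 and 18 in the K238R-labelled libraries. The 3 K412R libraries, at 0.786 ± 0.109 CPM (SD, n = 3), all lay above the 3 WT libraries, at 0.469 ± 0.032, as did the libraries of 31.1% of tested genes, in either direction. Its log2 fold change there was 0.72 (95% interval -0.33 to 1.77, edgeR quasi-likelihood adjusted p = 0.385). This was the only one of the 15 comparisons of a tested member without overlap; the share of tested genes without overlap was 24.0% for the K238R-labelled libraries against WT, and against ET it was 9.18% for these and 10.8% for K412R. Pmel shares exon sequence on the opposite strand with Cdk2, read at 15.2 to 32.0 CPM, and with Dgka, read at 15.4 to 23.3 CPM. The sources used here do not state a strand setting for the counting, so a part of the 5 to 19 Pmel counts could not be told from reads of these more abundant genes.

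Summed over Tyr, Tyrp1, Dct and Pmel, each group held nearly the same number of counts, with 72 in ET, 65 in WT, 72 in the K238R-labelled libraries and 71 in K412R. The summed level was 1.38 ± 0.674 CPM (SD, n = 3) in ET, 1.33 ± 0.311 in K412R, 1.31 ± 0.551 in the K238R-labelled libraries and 1.22 ± 0.200 in WT. The groups differed by less than the smallest of these SDs.

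Members of the mature retina were at or near 0. Crx, the homeodomain factor of photoreceptors and of the pineal gland, had a total of 1 count in ET, 1 in WT, 3 in the K238R-labelled libraries and 1 in K412R, with no library above 2. Rcvrn, the calcium sensor of the phototransduction cascade, had 1, 3 and 0 counts in ET, against 1, 0 and 2 in WT, 1, 0 and 1 in K412R and 2, 0 and 1 in the K238R-labelled libraries. Rpe65, the isomerase of the visual cycle in pigment epithelium, was at 0 in 10 of 12 libraries, and its 3 counts were 2 in WT replicate 3 and 1 in K412R replicate 3. The 0 counts in ET as a whole allow a level of up to 0.0571 CPM, and those in the K238R-labelled libraries up to 0.0546 CPM. All 3 genes together gave between 4 and 6 counts a group, and no difference was detectable.

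Six6, a homeobox gene of the eye field, the hypothalamus and the pituitary, was the member that varied most, and it varied within the groups. It was read at 0.398, 0.826 and 4.61 CPM in ET, at 0.956, 3.29 and 0.970 in WT, at 7.55, 1.11 and 1.68 in the K238R-labelled libraries, and at 2.62, 4.41 and 0.449 in K412R. Every group held a library above 3 CPM and another no higher than 1.11 CPM, and all groups overlapped. The group means, 3.45 ± 3.56 CPM (SD, n = 3) in the K238R-labelled libraries, 2.49 ± 1.98 in K412R, 1.95 ± 2.32 in ET and 1.74 ± 1.34 in WT, followed an order in which no neighbouring groups differed by more than the smaller of their SDs. The highest library held 19.0 times the level of the lowest, against 2.10 times for Mitf.

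The SD of Six6 within groups, on the log2(CPM + 0.5) scale, was 1.16, above that of 99.4% of the genes tested, whose median was 0.225. Mitf stood at 0.225 on this measure and Pmel at 0.314. With this spread, the standard errors of the Six6 contrasts were near 1 on the log2 scale. The log2 fold changes were -0.15 for WT against ET, 0.94 for the K238R-labelled libraries against WT and 0.52 for K412R against WT, with edgeR quasi-likelihood adjusted p values of 0.933, 0.619 and 0.778. Against ET they were 0.78 (95% interval -1.38 to 2.95) for the K238R-labelled libraries and 0.37 (95% interval -1.82 to 2.56) for K412R. A change of 4-fold either way between WT and ET lay within the interval, -2.38 to 2.07. Six6 overlaps 4930447C04Rik, a gene on the opposite strand, which was read at 2.90 to 8.62 CPM and whose reads could not be told apart from those of Six6 without strand.

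**Figure D2:**
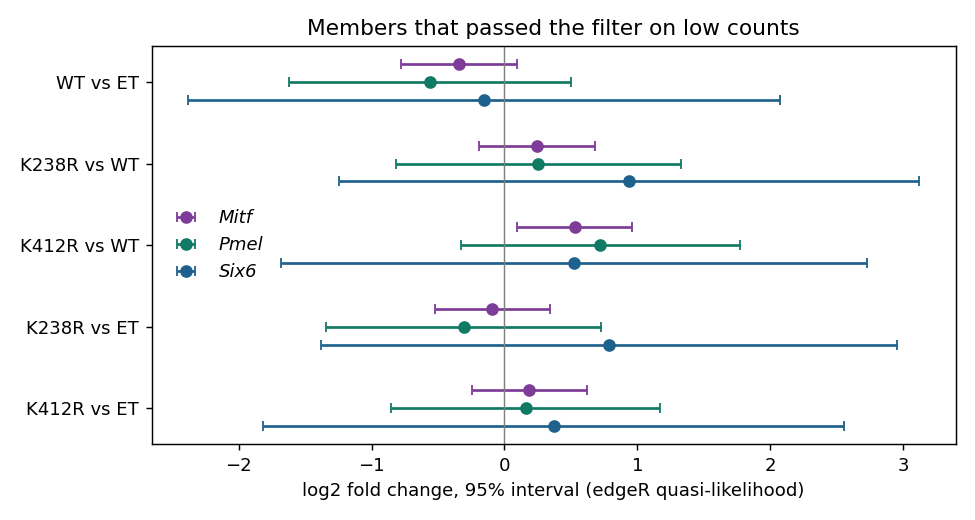
Log2 fold change (horizontal axis) with its 95% interval, from edgeR's quasi-likelihood test, for Mitf, Pmel and Six6 in 5 comparisons (vertical axis). Only the interval of Mitf in K412R against WT, 0.09 to 0.96, lies clear of 0, and its adjusted p was 0.152; the intervals of Six6 are the widest.

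Across Mitf, Pmel and Six6, none of the 15 tests passed the adjusted threshold of 0.05 with edgeR's quasi-likelihood test or with DESeq2, where an adjusted p was given, and 1 had an unadjusted p under 0.05 with edgeR. The share of all tested genes called was 0.0489% for WT against ET, 0.223% for the K238R-labelled libraries against WT and 2.04% for K412R against WT. Against ET it was 0.0% both for the K238R-labelled libraries, where 5.61% had an unadjusted p under 0.05 and DESeq2 called 14 genes, and for K412R, where 7.91% did and DESeq2 called 89. The members' count of 0 was therefore near the background in every comparison. In the fit with no filter on low counts, the 30 tests of the other 6 members gave no call and no unadjusted p under 0.05, with a lowest unadjusted p of 0.0730.

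Six6 rose and fell with some genes of the ventral forebrain. Over the 12 libraries, the genes whose log2(CPM + 0.5) followed Six6 most closely were Vax1, a homeobox gene of the ventral forebrain and optic stalk (Pearson r = 0.99), Dlx6os1 (0.97), Dlx1as (0.96), Dlx1 (0.94), Six3os1 (0.92), Dlx2 (0.89), Dlx5 (0.86) and Wnt7b (0.84). The Dlx genes are known for specifying GABAergic neurons, and Six3os1 lies beside Six3, a paralogue of Six6 that is also used in forebrain and eye. These values describe the 12 libraries, which share their depth and preparation, and the choice of Six6 for this search was made after its values were seen.

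Vax1 stood at 10.6 CPM in ET replicate 3, 7.69 in WT replicate 2, 14.7 in replicate 1 of the K238R-labelled libraries and 12.7 in K412R replicate 2. In the remaining 8 libraries it ranged from 1.85 to 7.41 CPM. These were the libraries highest in Six6 in each group. They were also the highest in 4 of 4 groups for the Dlx genes named and Six3os1 and in 3 of 4 for Wnt7b, which restates that these genes were chosen by their likeness to Six6. Of the eye field list, Six3 shared the highest library in 4 of 4 groups, Lhx2 in 3, Pax6 and Otx2 in 2 and Rax in 0.

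Among genes of the eye field and retinal progenitor, the correlation with Six6 was 0.81 for Six3 and 0.77 for Lhx2, 0.34 for Pax6 and 0.33 for Otx2, and -0.22 for Rax. Rax, which defines the eye field and the early hypothalamus, stayed between 0.278 and 1.39 CPM. Of 14 pituitary and hypothalamus genes, Six6 included, 4 had a mean of at least 1 CPM, among them Nkx2-1 at 4.66, Pomc at 4.60 and Lhx3 at 1.97 CPM. Their correlation with Six6 was 0.32 for Nkx2-1, 0.05 for Lhx3 and -0.32 for Pomc, and Nkx2-1 shared the highest library with Six6 in 1 of 4 groups. Gh and Prl were at 0 in all 12 libraries, where the limit of 3 counts over the 12 corresponds to 0.0140 CPM.

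**Figure D3:**
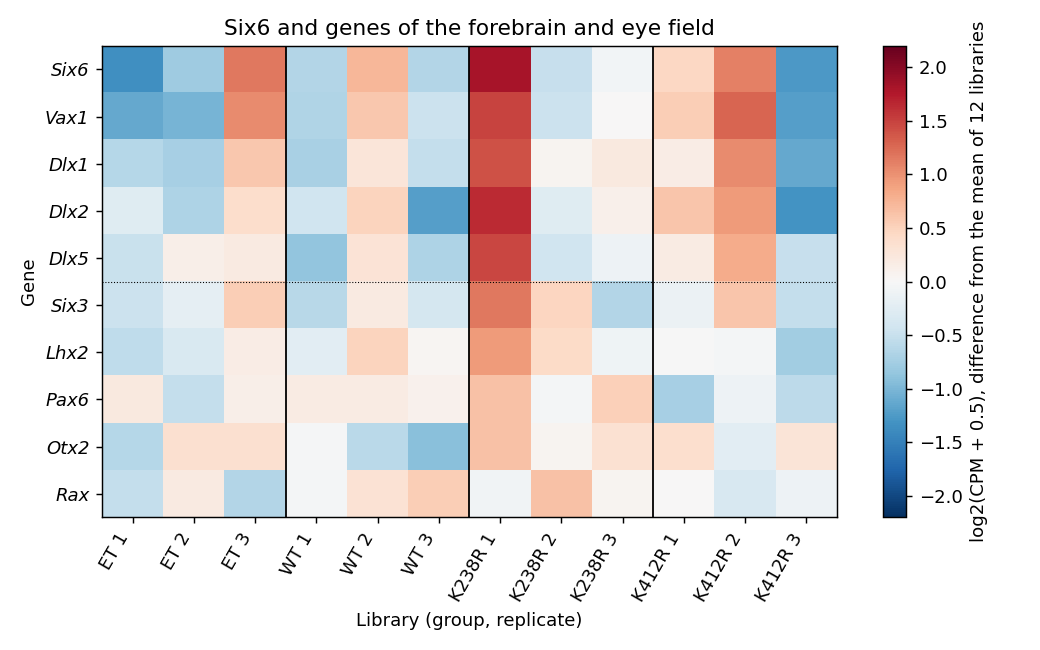
Heat map of log2(CPM + 0.5) as the difference from each gene's mean over 12 libraries (colour bar, log2 units), with genes in rows and libraries in columns by group and replicate. The same library of each group, ET 3, WT 2, K238R 1 and K412R 2, is reddest for Six6, Vax1, Dlx1, Dlx2, Dlx5 and Six3, whereas Rax is reddest in another library of each group.

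Among the wider gene lists, early regulators of the eye were read in every group. Of 12 eye field and retinal progenitor genes, 8 had a mean of at least 1 CPM, among them Sox2 at 145 CPM, Otx2 at 30.2 and Pax6 at 16.1. The rest of the list lay below 1 CPM, with Rax at 0.752, Atoh7 at 0.238, Hmx1 at 0.112 and Vax2 at 0.0796. In the 45 tests of the 9 that passed the filter, 0 were called with edgeR's quasi-likelihood test or with DESeq2 and 9 had an unadjusted p under 0.05, 20.0% against 16.6% of the tests of all genes. Their median log2 fold change was -0.24 for WT against ET and 0.44 for the K238R-labelled libraries against WT, where 8 of 9 were positive, against medians of -0.01 and 0.00 for all genes. For K412R against WT it was -0.08, with 4 of 9 positive, against 0.01 for all genes. Against ET it was 0.50 for the K238R-labelled libraries, with 8 positive, and -0.02 for K412R, with 4 positive. The median of all genes was -0.02 in both.

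Of 45 photoreceptor genes, 20 passed the filter, led by Gnb1, a G protein subunit that most cell types use. Several genes of mature photoreceptors were near 0: Prph2, which shapes the outer segment discs, was at 0 in 9 libraries, Pdc in 10 and Nr2e3 in 9. In 100 tests of these 20 genes, 12 (12.0%) had an unadjusted p under 0.05, 1 was called with edgeR and 2 with DESeq2. The edgeR call was Rp1, known as a microtubule protein of photoreceptors, which was higher in K412R than in WT, where 2.04% of all genes were called, at 23.2 ± 6.71 against 11.8 ± 1.14 CPM (SD, n = 3; log2 fold change 0.94, edgeR quasi-likelihood adjusted p = 0.0480). That call was lost in 9 of 12 leave-one-out fits, all but those without ET replicates 2 or 3 or K412R replicate 2, with adjusted p values up to 0.202.

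Of 16 retinal pigment epithelium genes, 13 were tested and Rlbp1, a retinoid carrier of pigment epithelium and Müller glia, was called, 1 of 65 tests, of which 12 had an unadjusted p under 0.05 and 4 were called with DESeq2. It fell from 3.43 ± 1.22 CPM in WT to 1.01 ± 0.246 in K412R (SD, n = 3; log2 fold change -1.77, standard error 0.37, edgeR quasi-likelihood adjusted p = 0.0369). The 3 WT libraries stood at 2.25, 4.68 and 3.37 CPM and the 3 K412R libraries at 1.11, 1.19 and 0.730. This call disappeared in 7 of 12 leave-one-out fits, those without ET replicate 1, WT replicates 2 or 3, replicate 1 of the K238R-labelled libraries, or any K412R replicate, with adjusted p values up to 0.151. Of the 16 genes, 10 had a mean of at least 1 CPM and 3, Rpe65, Rgr and Slc16a8, never reached 3 counts in a library. Lrat and Rdh5, enzymes of the visual cycle, stood at 0.440 and 4.36 CPM, Rrh at 0.499 and Best1, a chloride channel, at 0.699. Ttr was at 20.2 CPM in replicate 2 of the K238R-labelled libraries and between 0.767 and 4.22 elsewhere.

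Among 20 melanosome and melanin synthesis genes, the 9 with a mean of at least 1 CPM were 8 genes of vesicle traffic, among them Myo5a, Bloc1s6, Hps1 and Hps4, which many cell types use, and Gpnmb, which macrophages also express. Mlana was at 0 in 9 libraries and Gpr143 in 7, and Slc45a2, a melanosomal transporter, had between 0 and 4 counts. Of 55 tests on 11 genes, 0 were called with edgeR's quasi-likelihood test or with DESeq2, and 4 (7.3%) had an unadjusted p under 0.05. The neural crest genes upstream of melanocytes were present, with Ednrb at 150 CPM, Kit at 58.9 and Sox10 at 43.8, all of which are shared with other lineages, while Mc1r, the melanocortin receptor of melanocytes, was at 0 in 7 libraries. Tfap2b, a neural crest factor, was the 1 of 9 tested that was called (1 of 45 tests, of which 11, or 24.4%, had an unadjusted p under 0.05 and 4 were called with DESeq2), lower in K412R than in WT, at 2.71 ± 0.551 against 21.5 ± 13.3 CPM (SD, n = 3; log2 fold change -3.01, edgeR quasi-likelihood adjusted p = 0.0329). WT replicate 1 stood at 6.30 CPM against 27.0 and 31.1 in the other two, and that call disappeared in 5 of 12 leave-one-out fits, those without WT replicates 2 or 3 or any K412R replicate, and with no filter on low counts.

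**Figure D4:**
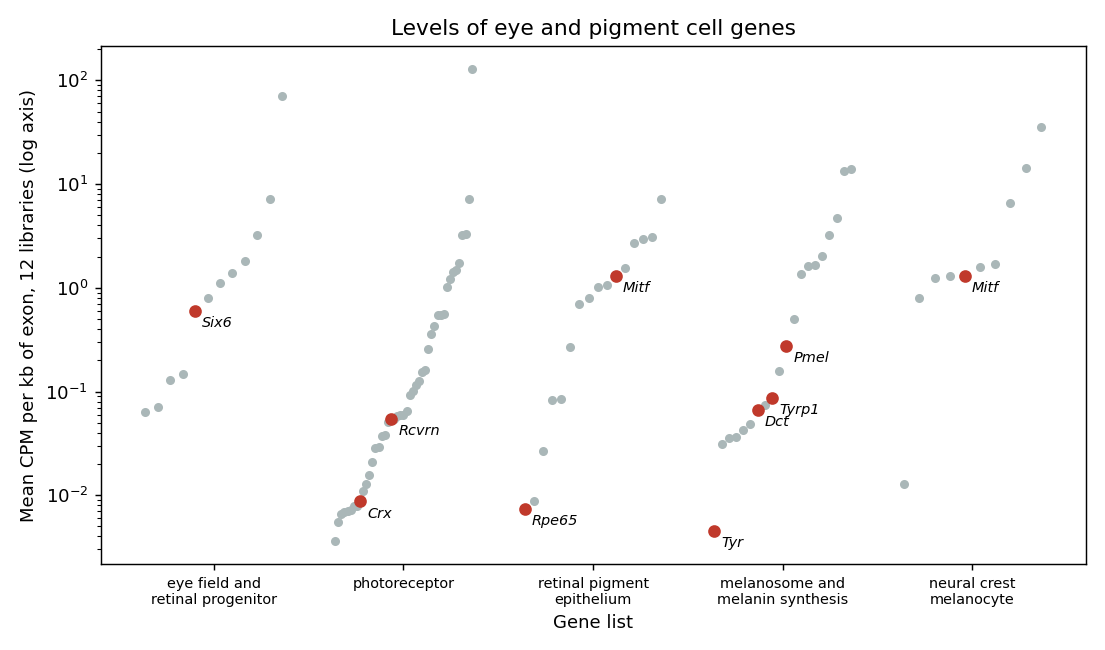
Mean level over 12 libraries in CPM per kilobase of exon (log axis) of every gene in 5 lists, in ascending order within a list, with members in red and labelled and other genes in grey. Mitf lies among the middle genes of both lists that hold it, whereas Tyr and Rpe65 lie at the low end of theirs.

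Lists of other tissues that use members or lie near the eye were read in the same way. With edgeR's quasi-likelihood test 0 genes were called among 7 for other retinal neurons (unadjusted p under 0.05 in 9 of 35 tests, 4 called with DESeq2), 8 for lens (4 of 40, 2 with DESeq2), 5 for pineal (9 of 25, 3 with DESeq2) and 7 for pituitary and hypothalamus (7 of 35, 1 with DESeq2). The same held for 9 Schwann cell genes (18 of 45, 11 with DESeq2), 7 for macrophages, osteoclasts and mast cells (7 of 35, 4 with DESeq2) and 10 for epidermis and hair follicle (16 of 50, 3 with DESeq2). Over all genes 16.6% of tests had an unadjusted p under 0.05 and 4.9% were called with DESeq2, against 40% and 24.4% for the Schwann cell genes, 36% and 12.0% for pineal, 32.0% and 6.0% for epidermis and hair follicle, 25.7% and 11.4% for other retinal neurons, 20.0% and 11.4% for macrophages, osteoclasts and mast cells, 20.0% and 2.9% for pituitary and hypothalamus, and 10.0% and 5.0% for lens. Among choroid plexus genes, 1 of 7 was called, Folr1, a folate receptor, in 2 of 35 tests. Folr1 was higher than in WT in K412R (log2 fold change 2.09, edgeR quasi-likelihood adjusted p = 0.00435). It was also higher than in WT in the K238R-labelled libraries (1.76, adjusted p = 0.0219, a call lost in 6 of 12 leave-one-out fits). Of the 35 choroid plexus tests, 14 (40%) had an unadjusted p under 0.05 and 4 (11.4%) were called with DESeq2.

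The patterns of Mitf and of the pigment and photoreceptor members were compared with all genes on the same measure. Mitf was followed most closely by Cd151 (r = 0.89), Cope, Gnai2, Krt25 (0.87), Bckdk, Meak7, Ninj1 and Man2b2 (0.84). Krt25, a keratin of the hair follicle, was read at 3 to 20 counts a library. The mean standardised pattern of Tyr, Tyrp1, Dct and Pmel was followed by Gm3255 (0.89), Irf2bpl, Whamm, Rnpepl1, Ttyh3, Cic, Armc5 and Zfp512b (0.83), none of them a melanosome gene of the list above. That of Crx and Rcvrn was followed by Wdfy3 (0.89), Atf6, Gm4983, Bbs9, 4930578G10Rik, Mettl21a, Plekhm3 and Myo15a (0.82). Both of these patterns rest on 0 to 19 counts a library and are given as a description of sparse values.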

How the data were processed

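Poly(A)-selected RNA of 12 teratomas (3 per group) was made into CORALL RNA-Seq V2 libraries and sequenced from both ends. The authors' read processing used Fastp for trimming, STAR for alignment and Salmon for quantification, with GRCm39 as the build, per the submitters' processing notes, and the authors deposited estimated counts per gene symbol, whole numbers without normalization. The annotation, strand setting and use of molecular identifiers are not given in the sources used here. Groups were taken from the sample titles.

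Counts were scaled to library totals (CPM) for levels and by TMM for tests. edgeR's quasi-likelihood test (edgeR 4.0.16, R 4.3.3, robust fit) was run on the 12 libraries together, with a mean for each group, over 18405 genes passing filterByExpr, with Benjamini-Hochberg adjustment and a threshold of 0.05. The study's methods name DESeq2 (1.42.0 here), run as an alternative. Poisson intervals (95%) and the limit of 3 counts cover counting error only. Exon lengths came from GENCODE M21 on GRCm38, and promoters from RefSeq. Replicate pairs differed by far more than counting noise (chi-square per degree of freedom 11.3 to 57.5).

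The members and lists were chosen with earlier results of these data known. Named genes were the 9 members in every library, list genes past the adjusted threshold or among the most abundant or defining of their list, and the 8 genes most like Tyr, Tyrp1, Dct and Pmel and most like Crx and Rcvrn; likeness to Six6 and to Mitf alone was added after their values were seen.

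The results of some list genes are not reported here.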

Additional observations from a re-analysis of the deposited data

How the results depend on the processing

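With 18 alternatives, no member was called in any of the 5 comparisons, and 267 refitted log2 fold changes of Mitf, Pmel and Six6 held 253 of the same direction and 14 of the opposite one. All 14 concerned Six6 or Pmel, none Mitf, and the cause was not tested. With each library left out in turn, Six6 ranged from -1.003 to 1.54 for WT against ET, from -0.36 to 1.79 for the K238R-labelled libraries against WT, from -0.19 to 1.37 for K412R against WT, from -0.51 to 2.48 for the K238R-labelled libraries against ET and from -0.35 to 2.06 for K412R against ET. Pmel ranged from -0.32 to 0.57 for the K238R-labelled libraries against WT, from -0.88 to 0.18 for these against ET (also 0.18 without both ET replicate 2 and WT replicate 1) and from -0.031 to 0.66 for K412R against ET. The Six6 direction turned without the library highest in Six6: 1.54 without ET replicate 3 (WT against ET), -0.36 and -0.51 without replicate 1 of the K238R-labelled libraries, and -0.19 and -0.35 without K412R replicate 2; smaller turns came without WT replicates 1 or 3 (0.15 and 0.12) or ET replicate 1 (-0.12). Pmel turned without ET replicates 1 or 3 (-0.031 and -0.028, K412R against ET), ET replicate 2 (0.18), and replicates 2 (0.013) or 3 (-0.32) of the K238R-labelled libraries. The adjusted p of Mitf in K412R against WT lay between 0.0785 and 0.441 over all alternatives.

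The number of genes called over all genes moved far more. For WT against ET it was 9, and 1922 with DESeq2, 34 with no filter on low counts, 0 in a fit of these 2 groups only, 6977 without ET replicate 2 and WT replicate 1, and 0 to 5784 with single libraries left out. For the K238R-labelled libraries against WT it was 41, and 786, 69, 385, 2162 and 2 to 812 in the same order. For K412R against WT it was 375, and 1675 with DESeq2, 1877 for these groups only, 3365 without both libraries and 10 to 1526 with single libraries left out. Against ET it was 0 for the K238R-labelled libraries (14 with DESeq2, 2 without both libraries, 0 with any single library left out) and 0 for K412R (89 with DESeq2, 1 with no filter, 460 without both libraries, 0 to 284 with single libraries left out, the highest without ET replicate 2). Whether replicate numbers pair the samples was not settled. The correlation of same-numbered deviations was between -0.215 and 0.334 over the comparisons, but differently numbered libraries were not correlated for reference. With the replicate number as a block, 926 genes were called for WT against ET, 203 for the K238R-labelled libraries against WT and 1131 for K412R against WT, and no member.

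Depth limits 6 of the 9 members, which had at most 14 counts in any library. None of them passed the filter in the fit of all 12 libraries, whereas 4 of the 9 members passed it in some fits without 1 library. Neighbours on the opposite strand limit what can be said of Pmel and Six6, because the strand setting is not given. Each construct was carried by 1 cell line.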
